A study of Homo sapiens with 6 samples.

Results

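The 40 genes described here encode the proteins that copy DNA and the regulators that start S phase, the part of the cell cycle in which the genome is duplicated. The list was made by name with earlier results of these arrays known, so the members' shared course over the arrays is a description and not independent evidence. The rule takes members by name, and measured values enter it in the choice among probe sets. The genes were read by a probe set with 1 gene symbol in 40 of 40 cases, among 18377 genes measured in all. Where a gene had several probe sets the brightest by the mean of 6 arrays was used, which applied to UHRF1 alone. The study used the established line MDA-MB-231, breast cancer cells of mesenchymal, triple-negative character, grown in DMEM/F12 with calf serum. The empty-vector group (3 cultures) carried the pTargeT mammalian expression vector without insert. The GHSROS group (3 cultures) carried the same vector with GHSROS, a long noncoding RNA gene that lies antisense to the ghrelin receptor gene. Both groups were thus transfected. The labels do not say whether the cells were pools or clones, nor how long after transfection they were collected. Total RNA of each culture was hybridised to 1 Affymetrix Human Gene array, and the values are log2 expression, so a difference of 1 is 2-fold.

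Array medians lay between 6.56 and 6.65, and 6 arrays limit the precision of every value below. GHSROS itself has no named probe set here, so the transfected gene gave no check of the labels. Of 6 mesenchymal markers of the line, VIM, CD44, CAV1 and AXL were above 12 on all arrays, SPARC (5.86 to 6.64) lay below every array median, and LOX was at 11.14, 10.25 and 9.82 on empty-vector arrays 1, 2 and 3 and at 9.71, 9.78 and 11.14 on GHSROS arrays 1, 2 and 3. Of 8 luminal epithelial markers, ESR1, PGR and CDH1 lay below every array median, and the other 5 (KRT18, ERBB2, GATA3, EPCAM and FOXA1) lay above, from 6.68 for FOXA1 to 12.16 for KRT18. Of 11 measured markers of leukocytes, endothelium, fibroblasts and red cells, 7 were below the median of every array, among them PTPRC at 3.55 to 3.68. The others were CD68 at 12.06 to 12.66, COL1A1 at 7.62 to 7.85, CDH5 at 6.65 to 7.32 and PDGFRB at 6.52 to 7.52. The mean level of the 11 was 6.25 to 6.39 on the empty-vector arrays and 6.22 to 6.49 on the GHSROS arrays.

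Replication starts at origins, which the origin recognition complex marks. In G1 the loaders CDC6 and CDT1 place the MCM2 to MCM7 ring on DNA, and in S phase CDC45 and the GINS complex turn that ring into an active helicase. Polymerases, the PCNA clamp and its loader then copy the strands, while enzymes of nucleotide synthesis supply the building blocks. Transcription of most of these genes is known to be driven at the G1/S boundary by E2F factors, which the retinoblastoma protein holds back in resting cells. Tumour lines such as this one divide continuously in culture.

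The members' promoters were searched for the letters E2F factors are known to bind. RefSeq sequence (GRCh38.p14) from 250 bases before to 50 bases after the start site was found for 35 of the 40 members, and not for MCM4, MCM5, GINS4, CCNE2 and E2F8. The letters TTTCCCGC, TTTGGCGC, TTTCGCGC or TTTGCCGC, on either strand, were present for 19 of 35 members (54.3%), against 48.7% of 39 other replication genes and 5.51% of 14210 genes on the arrays with such a sequence. Among 25 mitosis genes, a group that followed the same arrays as described below, 2 (8%) held such letters. Counted by window, since some genes have several start sites, the shares were 44.4% of 45 windows of members and 3.31% of 35116 windows in all. The CCAAT box (CCAAT, either strand) was in the windows of 57.1% of members and 42.2% of array genes. The CHR element of mitotic promoters (TTTGAA or TTCGAA, either strand) was in those of 2 of 35 members (5.71%), against 17.4% of array genes and 20 of 25 mitosis genes (80%). A match is a description of the letters only, and the expression values carry no measure of binding.

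The 160 bases before the start site are printed for 6 members from 6 roles, as examples of where these letters lie, with E2F-type matches in capitals. They are MCM6 (chr2:135876444-135876603, minus strand), GINS2 (chr16:85688955-85689114, minus), PCNA (chr20:5126623-5126782, minus), LIG1 (chr19:48170345-48170504, minus), TYMS (chr18:657493-657652, plus) and E2F1 (chr20:33686386-33686545, minus), all GRCh38.p14 and written 5′ to 3′ along the gene. In MCM6 2 stretches of capitals each hold a pair of overlapping matches on opposite strands, 4 matches in all, and E2F1 holds 2 matches.
MCM6: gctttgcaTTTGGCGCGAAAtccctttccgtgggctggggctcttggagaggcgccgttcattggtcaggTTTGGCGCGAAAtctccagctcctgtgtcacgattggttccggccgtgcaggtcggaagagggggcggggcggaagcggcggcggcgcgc
GINS2: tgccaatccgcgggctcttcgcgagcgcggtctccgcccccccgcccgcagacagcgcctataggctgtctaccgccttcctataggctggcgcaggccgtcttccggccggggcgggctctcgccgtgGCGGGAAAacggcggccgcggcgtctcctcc
PCNA: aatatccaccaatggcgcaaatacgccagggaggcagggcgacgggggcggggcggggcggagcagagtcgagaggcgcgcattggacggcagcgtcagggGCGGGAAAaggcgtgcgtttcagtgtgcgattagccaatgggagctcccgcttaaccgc
LIG1: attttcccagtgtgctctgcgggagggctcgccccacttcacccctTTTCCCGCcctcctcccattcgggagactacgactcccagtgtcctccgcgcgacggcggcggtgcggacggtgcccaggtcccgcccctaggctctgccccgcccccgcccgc
TYMS: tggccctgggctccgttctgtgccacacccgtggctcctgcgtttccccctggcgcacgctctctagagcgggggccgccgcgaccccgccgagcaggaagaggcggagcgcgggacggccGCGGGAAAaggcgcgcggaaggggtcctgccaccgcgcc
E2F1: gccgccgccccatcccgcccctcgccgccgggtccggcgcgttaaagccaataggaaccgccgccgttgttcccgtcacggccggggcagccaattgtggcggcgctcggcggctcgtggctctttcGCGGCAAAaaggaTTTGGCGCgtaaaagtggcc

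No replication gene was called different between the GHSROS and the empty-vector cultures. Of the 40 members, 18 were higher and 22 lower with GHSROS, and 0 passed an adjusted p of 0.05 in limma, as was so for 0 of all 18377 genes (0%). At an unadjusted p under 0.05 the count was also 0 of 40, where 1.77% of all genes lay. The median difference of the members was -0.02, beside 0.002 over all genes, of which 50.9% were higher. In 0 of 40 members did the groups lie apart, whereas they did so with GHSROS higher in 3.06% and with GHSROS lower in 2.44% of all genes. Neither an intensity trend with a robust prior nor array weights in limma gave a called gene.

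The members instead varied together from array to array, with 1 low array in each group. Empty-vector array 1 and GHSROS array 3 were the 2 lowest arrays for 38 of 40 members, against 20.3% of all genes. Empty-vector array 3 was the highest for 34 of 40, against 25.6% of all genes. Relative to each gene's mean of 6 arrays, the median member was at -0.48, 0.08 and 0.35 on empty-vector arrays 1, 2 and 3 and at 0.19, 0.14 and -0.36 on GHSROS arrays 1, 2 and 3. All 40 lay under their own mean on the first of the empty-vector arrays, and 39 did on the third GHSROS array, CDT1 being the exception. The 2 members with another lowest pair were CDT1 and E2F2. In such bulk RNA, fewer cells in S phase and less of each transcript per cell cannot be told apart, nor from a technical difference.

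**Figure D1:**
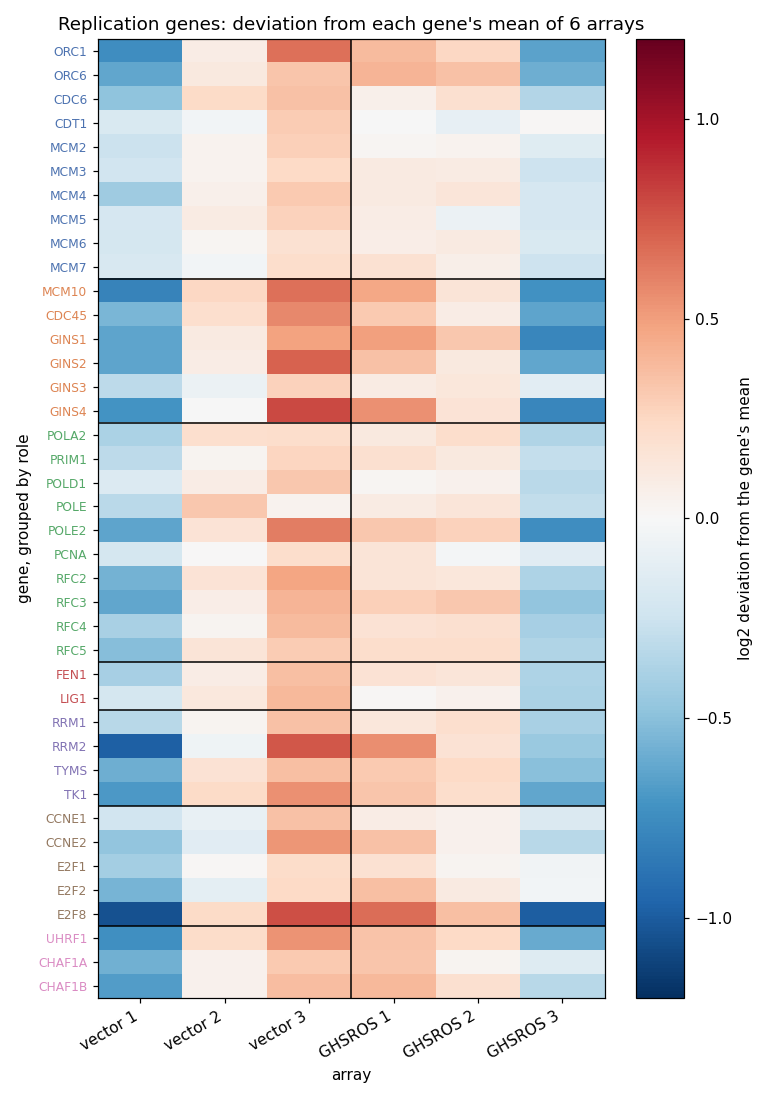
Heat map of the log2 deviation of each of the 40 genes (rows, grouped by role) from its mean of 6 arrays (columns, 3 empty vector and 3 GHSROS). Blue columns at the arrays vector 1 and GHSROS 3 run through nearly all rows, and empty-vector array 3 is the reddest.

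The size of that variation differed widely between members. The range, highest minus lowest of the 6 arrays, had a median of 0.82 over the members and 0.37 over all genes, and was at least 1, a 2-fold span, for 16 of 40 members against 5.57% of all genes. E2F8 had the widest range at 1.82 (3.53-fold), exceeded by 0.664% of all genes, and MCM6 the narrowest at 0.40 (1.32-fold), exceeded by 46.1%. No member had a range below the median of all genes. A range belongs to a probe set as well as to its gene, and RMA values compress differences of dim probe sets, so an order of ranges is an order of these probe sets.

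**Figure D2:**
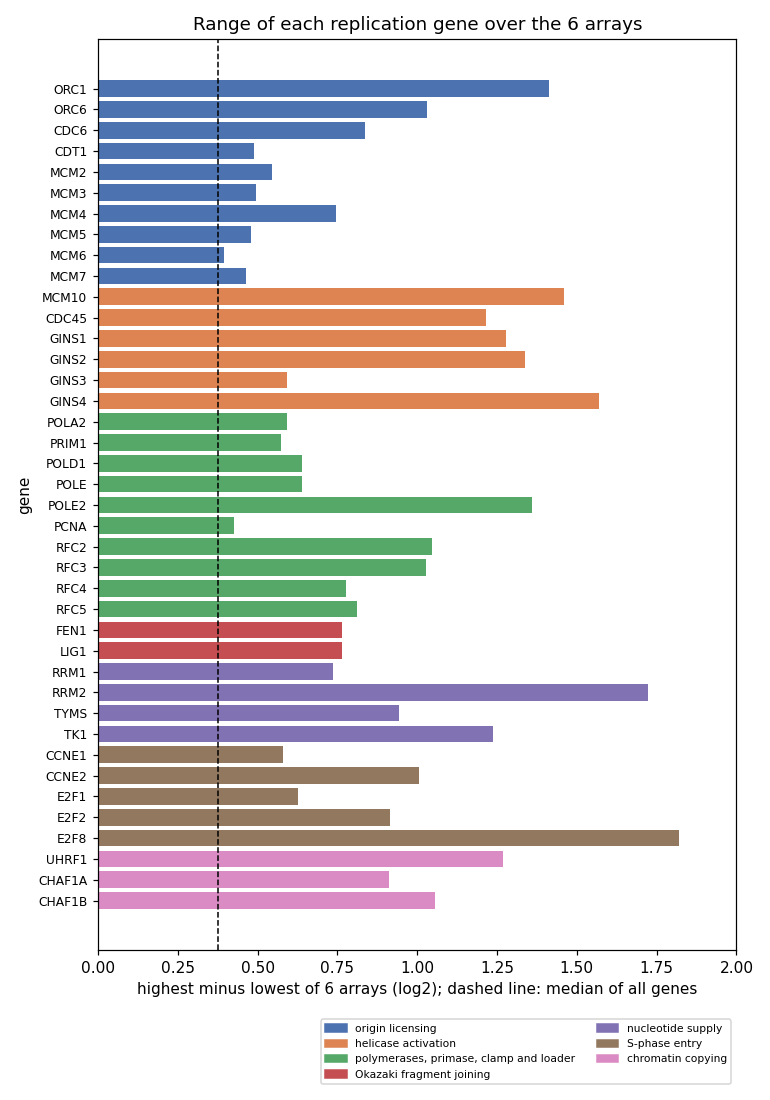
Bars give the range of each member over the 6 arrays in log2 units, coloured by role, with the median of all genes (0.37) as a dashed line. The bars of MCM2 to MCM7 are short (0.40 to 0.74), while MCM10, CDC45, GINS1, GINS2 and GINS4 reach 1.22 to 1.57.

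Among the licensing genes, which load the helicase in G1, MCM6 had the narrowest range, and the 6 subunits of the ring spanned 0.40 to 0.74. MCM6, a subunit of the ring, was at 9.55, 9.79 and 9.94 on empty-vector arrays 1, 2 and 3 and at 9.84, 9.87 and 9.58 on GHSROS arrays 1, 2 and 3, the order in which values are given from here on. The groups overlapped, and the GHSROS minus vector difference was 0.01 (SE 0.14, 95% interval -0.31 to 0.33). MCM3 stood at 11.26, 11.53 and 11.74 with the vector and 11.60, 11.59 and 11.24 with GHSROS. The subunit with the widest range was MCM4 (0.74), at 9.89, 10.37 and 10.63 against 10.42, 10.45 and 10.12. All 6 ring subunits were lowest on empty-vector array 1 and GHSROS array 3, and their differences between groups ran from -0.12 for MCM5 (SE 0.14) to 0.03 for MCM4 (SE 0.20).

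The genes whose proteins bring the ring to origins had wider ranges, from 0.84 for CDC6 to 1.41 for ORC1, apart from CDT1 (0.49). ORC1, the ATPase subunit of the origin recognition complex that is made anew in each cycle, was at 7.14, 7.98 and 8.55 with the vector and 8.27, 8.14 and 7.24 with GHSROS. Its range of 1.41 spanned both groups, and the difference between them was -0.01 (SE 0.40). ORC6, the smallest subunit, was at 7.89, 8.63 and 8.85 against 8.92, 8.87 and 7.93. It had the largest difference upward of the licensing genes, 0.12 (SE 0.34), with overlapping groups. CDC6, the loader that works with the complex, was at 10.59, 11.30 and 11.42 against 11.14, 11.26 and 10.72. CDT1, the partner that carries the ring and is destroyed in S phase, was at 8.53, 8.67 and 9.01 against 8.70, 8.61 and 8.72, and the SD of its GHSROS arrays was 0.06.

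The genes that activate the loaded helicase varied most as a role, with a median range of 1.31. MCM10, a factor needed for the ring to begin unwinding, was at 9.50, 10.55 and 10.96 with the vector and 10.77, 10.45 and 9.58 with GHSROS. CDC45, which joins the ring in S phase, was at 9.39, 10.14 and 10.52 against 10.26, 10.04 and 9.31. It had the largest downward difference of the role, -0.15 (SE 0.34), far within the spread between arrays. Of the 4 GINS subunits, GINS4 spanned most, at 8.12, 8.83 and 9.63 against 9.39, 9.00 and 8.06. GINS1 and GINS2 had ranges of 1.28 and 1.34. GINS3, a subunit of the same complex, spanned only 0.59, at 8.30, 8.55 and 8.89 against 8.71, 8.75 and 8.49, and had the role's largest upward difference, 0.07 (SE 0.16).

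Subunits of the polymerases and of the clamp loader lay between these extremes, and in each the 2 lowest values were those of empty-vector array 1 and GHSROS array 3. PCNA, the sliding clamp, was at 10.18, 10.39 and 10.61 with the vector and 10.55, 10.37 and 10.26 with GHSROS, the narrowest range of the role (0.43), with a difference of 0.00 (95% interval -0.32 to 0.32). POLE2, the second subunit of the leading-strand polymerase, had the widest (1.36), at 9.52, 10.31 and 10.76 against 10.47, 10.43 and 9.40. POLE, the catalytic subunit of the same enzyme, spanned 0.64, at 9.20, 9.84 and 9.56 against 9.62, 9.66 and 9.23, and was the member highest on empty-vector array 2. The clamp loader subunits RFC2, RFC3, RFC4 and RFC5 had ranges of 1.05, 1.03, 0.78 and 0.81. RFC3 had the largest difference upward of the role at 0.09 (SE 0.31). POLD1, the catalytic subunit of the lagging-strand polymerase, had the largest downward at -0.16 (SE 0.16), with values of 8.49, 8.74 and 8.97 against 8.68, 8.70 and 8.33. PRIM1 and POLA2, of the primase complex that starts each fragment, spanned 0.57 and 0.59.

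Okazaki fragments are trimmed by FEN1 and sealed by LIG1. LIG1 had the largest downward difference of all 40 members, -0.21 (SE 0.18, 95% interval -0.64 to 0.23). Its values were 8.47, 8.81 and 9.06 with the vector and 8.69, 8.73 and 8.29 with GHSROS, and the groups overlapped through empty-vector array 1. FEN1 was at 10.21, 10.71 and 10.98 against 10.79, 10.76 and 10.24, a difference of -0.03 (SE 0.23). Both had a range of 0.76.

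For nucleotide supply, the genes of the 2 chains of ribonucleotide reductase, which makes deoxynucleotides, differed in range. RRM2, the small chain that is made in S phase, was at 9.17, 10.10 and 10.89 with the vector and 10.70, 10.32 and 9.70 with GHSROS, a range of 1.72. RRM1, the large chain, was at 11.52, 11.88 and 12.20 against 11.98, 12.05 and 11.46, a range of 0.74. RRM2 also had the second largest upward difference between groups, 0.19 (SE 0.44, 95% interval -0.86 to 1.24), an interval too wide to place it. Thymidine kinase TK1, a salvage enzyme, was at 9.93, 10.86 and 11.17 against 10.96, 10.83 and 10.00. Thymidylate synthase TYMS, which makes thymidylate from deoxyuridylate, was at 11.47, 12.23 and 12.41 against 12.36, 12.29 and 11.55.

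The regulators of S phase entry held the widest range and the largest upward difference. E2F8, a repressor of the E2F family that accumulates late in S phase, was at 7.69, 8.96 and 9.51 with the vector and 9.40, 9.09 and 7.74 with GHSROS. The difference between groups was 0.03 (SE 0.57), since each group held 1 low array. E2F2, an activator, was at 5.36, 5.80 and 6.16 against 6.28, 6.03 and 5.89, a difference of 0.29 (SE 0.21, 95% interval -0.20 to 0.79). It is the 1 member below the median of every array, and whether it is expressed cannot be told from these values. E2F1, the best known activator, was at 9.62, 10.04 and 10.25 against 10.20, 10.06 and 9.98, a difference of 0.11 (SE 0.17). Cyclin E, the partner of CDK2 at the G1/S boundary, is encoded by CCNE1 and CCNE2. CCNE1, with the narrowest range of the role (0.58), was at 7.64, 7.78 and 8.22 against 7.95, 7.92 and 7.69, and was the member of the role with a downward difference, -0.03 (SE 0.16). CCNE2 was at 8.84, 9.19 and 9.85 against 9.68, 9.38 and 8.99.

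Chromatin is rebuilt behind the fork by the CAF-1 complex, to which CHAF1A and CHAF1B belong, and DNA methylation is copied with the help of UHRF1. UHRF1 was at 9.99, 10.94 and 11.25 with the vector and 11.06, 10.95 and 10.11 with GHSROS, a range of 1.27 and a difference of -0.02 (SE 0.38). Its other, dimmer probe set spanned only 0.28, between 6.22 and 6.50, and differed by 0.11. It lay below every array median, so whether it reads any signal cannot be told. CHAF1A was at 8.71, 9.34 and 9.61 against 9.62, 9.33 and 9.14, and CHAF1B at 8.98, 9.70 and 10.02 against 10.04, 9.84 and 9.31. Their differences of 0.14 (SE 0.24) and 0.16 (SE 0.29) were within the spread between arrays.

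**Figure D3:**
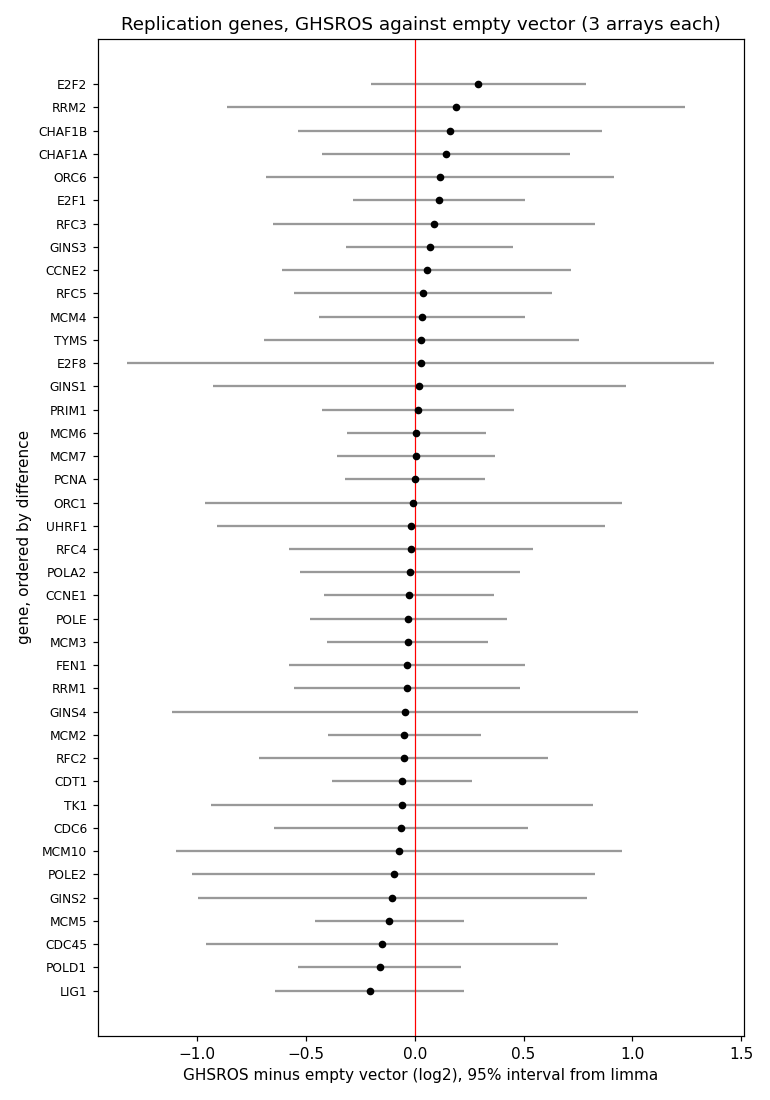
Points give the GHSROS minus empty-vector difference of each member in log2 units, ordered by size, with 95% intervals from limma over 3 arrays a group. All 40 intervals include 0, from LIG1 at -0.21 to E2F2 at 0.29.

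The width of the intervals sets what this comparison, with group as the one term, could show. The spread between arrays of a group, which the members largely shared, enters that width. All 40 intervals of the difference included 0. Their half-widths ran from 0.32 for MCM6 to 1.35 for E2F8, with a median of 0.57, against 0.28 over all genes. The interval stayed within a 2-fold difference either way for 35 of 40 members and within 1.5-fold for 18 of 40. Over all 18377 genes the counts were 17874 and 15803, so the members were less closely bounded. For E2F8, GINS4, RRM2, MCM10 and POLE2 the interval went beyond 2-fold. The labels accounted for a median of 0.49% of a member's variance over the 6 arrays, and for 6.12% over all genes, with 24.5% as the highest value among members (E2F2).

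Because each group held 1 of the 2 low arrays, the sign of the members' difference turned with which array was in the fit. The median difference was -0.21 without empty-vector array 1 (1 member higher and 39 lower) and 0.16 without GHSROS array 3 (36 higher and 4 lower). It was 0.19 without empty-vector array 3, the highest array (36 higher and 4 lower), and 0.03 without empty-vector array 2. Leaving out GHSROS array 1 or 2 gave -0.10 in either case. Without both empty-vector array 1 and GHSROS array 3, an omission chosen with their values known, it was -0.04 (12 higher and 28 lower), and 0 members passed in limma. Groups then lay apart for 7 members, of which CDC6, LIG1, MCM2, MCM5, POLD1 and RFC2 were lower and ORC6 higher, where 13.7% and 11.6% of all genes lay apart lower and higher. The largest of these differences was that of LIG1, -0.22 (SE 0.13). With all 6 arrays, 21 members were higher after quantile normalization and 15 after median centring, which shifts every gene's difference by the same amount.

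**Figure D4:**
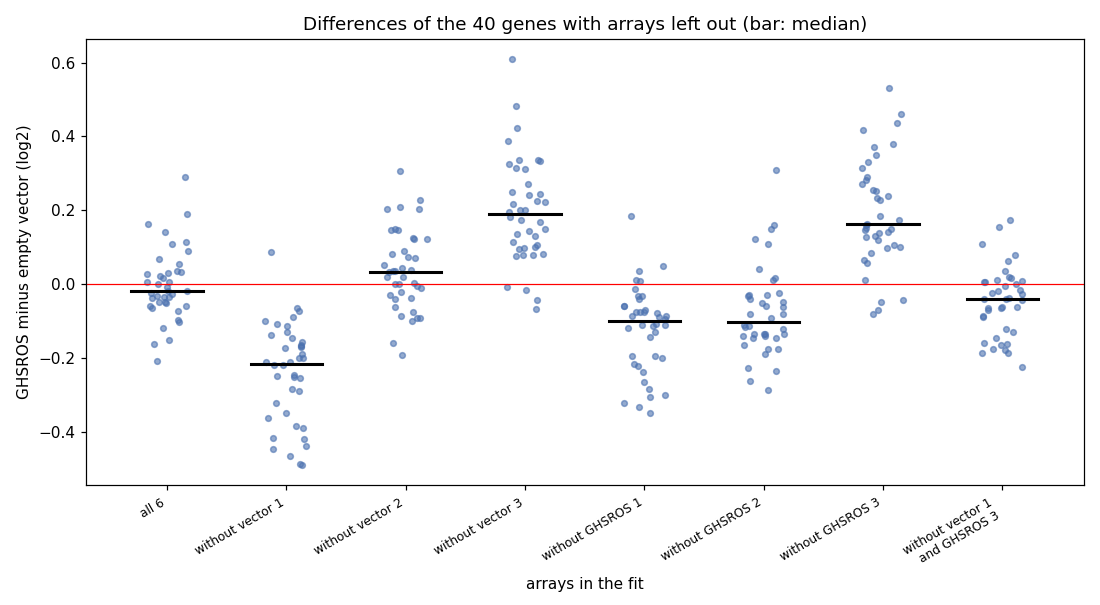
Each point is the GHSROS minus empty-vector difference (log2) of 1 of the 40 members, and each bar their median, with all 6 arrays and with arrays left out. The cloud lies below 0 without empty-vector array 1 (median -0.21) and above 0 with either GHSROS array 3 (0.16) or empty-vector array 3 (0.19) omitted.

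The 2 low arrays, 1 of each group, were close to each other for most members. GHSROS array 3 was above empty-vector array 1 for 29 of 40 members, with a median gap of 0.06. In 5 members the gap was 0.3 or more, namely RRM2 (0.53), E2F2 (0.53), CHAF1A (0.43), E2F1 (0.36) and CHAF1B (0.33). These are also 5 of the 6 members with the largest upward difference between groups, of which this gap is itself a part. At the other end LIG1 was lower on GHSROS array 3 by a difference of -0.17, POLD1 by -0.16 and GINS1 by -0.15. On the 4 other arrays the members spanned less, with a median range of 0.33 against 0.26 over all genes, from 0.10 for POLA2 to 0.80 for RRM2.

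Further genes of the pathway, a list of 48 fixed by name, followed the same arrays. Of these 47 were measured, 26 were higher and 21 lower with GHSROS, 0 passed in limma and 0 had an unadjusted p under 0.05. Empty-vector array 1 and GHSROS array 3 were the lowest pair for 44 of 47. The exceptions were ORC5, the histone mRNA-binding protein gene SLBP and the repressor gene E2F7. The largest differences were 0.18 (SE 0.21) for DBF4, the activator of the CDC7 kinase, 0.16 (SE 0.30) for ORC2 and 0.15 (SE 0.16) for the mismatch repair gene MSH6. The probe set of DBF4, at 4.57 to 5.40, lay below every array median, so as for E2F2 its expression cannot be told from these values. The largest downward were -0.11 (SE 0.33) for the chromatin remodeller HELLS, -0.10 (SE 0.15) for the clamp loader gene CHTF18 and -0.08 (SE 0.14) for ORC5.

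These genes place the members within their complexes. ORC2 spanned 1.01 and ORC3, ORC4 and ORC5 spanned 0.22, 0.20 and 0.50, beside 1.41 for ORC1. In the leading-strand polymerase POLE3 and POLE4 spanned 0.59 and 0.49, beside 1.36 for POLE2. CDC25A, the phosphatase that activates CDK2, had the widest range of the list (1.72), at 7.75, 8.72 and 9.44 with the vector and 9.41, 9.15 and 7.71 with GHSROS. The checkpoint adaptor CLSPN spanned 1.53 and the fork protection gene TIPIN 1.45. RB1, the retinoblastoma gene, spanned 0.32 and TFDP1, the partner of E2F factors, 0.42.

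Mitosis genes followed the members over the arrays, and most stress genes took the opposite course. Relative to each gene's mean, the median of 30 mitosis genes was at -0.64, 0.18 and 0.40 on the empty-vector arrays and 0.37, 0.31 and -0.61 on the GHSROS arrays. All 30 had empty-vector array 1 and GHSROS array 3 as the lowest pair, and their median range was 1.13. For 20 targets of ATF4, which drives transcription when amino acids run short, the median was at 0.49, -0.04 and -0.33 against -0.32, -0.24 and 0.52. Empty-vector array 1 and GHSROS array 3 were the 2 highest arrays for 14 of the 20, and for 3475 of all 18377 genes. The ranges ran from 0.12 for MTHFD2 to 4.32 for NUPR1 with a median of 1.01, and ATF3 (0.21), SLC7A11 (0.16) and SLC7A5 (0.26) were among those that spanned little. NUPR1, a stress-induced chromatin protein gene with the widest range of the list, was at 10.82, 6.74 and 6.61 against 6.79, 6.62 and 10.93. Among 4 measured CDK inhibitor genes, CDKN1B, the inhibitor of cyclin E with CDK2, was at 9.93, 9.54 and 9.22 against 9.43, 9.47 and 9.91. CDKN1A, the p53-responsive inhibitor, was at 9.22, 9.30 and 9.17 against 9.13, 9.49 and 9.17. CDKN1C and CDKN2D spanned 0.12 and 0.26. Only for CDKN1B, 1 of the 4, were empty-vector array 1 and GHSROS array 3 the 2 highest. Of the 11 markers of other cells, PDGFRB had the widest range (1.01), at 7.44, 7.16 and 6.52 against 6.52, 7.09 and 7.52. The part of stress, or of any other property of those 2 cultures or of their arrays, in the members' levels was not tested.

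**Figure D5:**
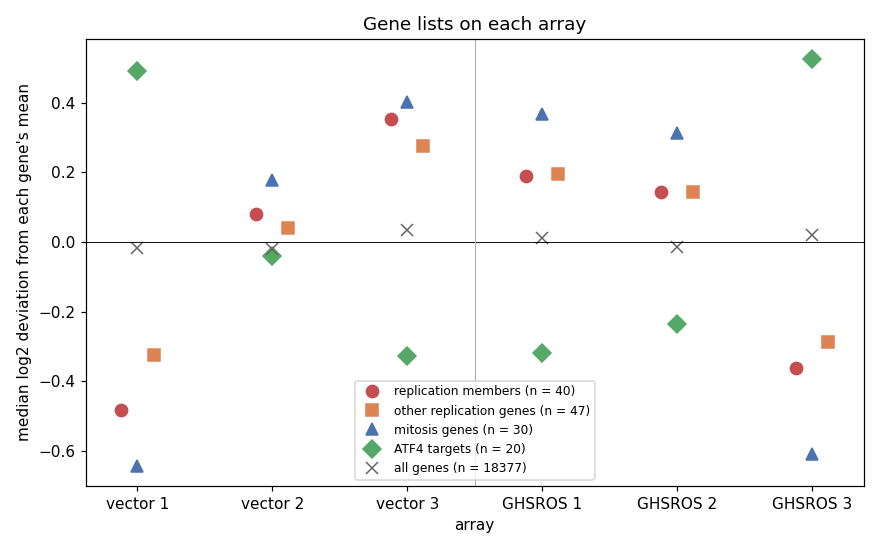
Points give, for each array, the median log2 deviation from each gene's mean of 6 arrays over the 40 members, 47 other replication genes, 30 mitosis genes, 20 ATF4 targets and all 18377 genes. Replication and mitosis genes are lowest, and ATF4 targets highest, on the arrays vector 1 and GHSROS 3, while all genes stay near 0 on each array.

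Among the 35 members with a promoter sequence, the E2F-type letters did not mark those with wide ranges. The 5 without one, among them E2F8 (range 1.82) and GINS4 (1.57), could not be searched. The 19 members with a match had a median range of 0.64 (0.40 to 1.36) and the 16 without one a median of 0.97 (0.57 to 1.72). Among the former were all of MCM2, MCM3, MCM6 and MCM7 as well as GINS1, GINS2 and POLE2, and among the latter RRM2, MCM10 and ORC1. These values are a description, and the difference was not tested.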

How the data were processed

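RNA of 6 MDA-MB-231 cultures, 3 per group by the sample titles, was hybridised to 1-colour Affymetrix Human Gene arrays. The authors deposited 1 log2 value for each probe set and array. The submitters' processing notes name RMA, a method that corrects background and summarises probes, with neither version nor settings. Array medians differed by 0.0895. Of 28869 probe sets, 19310 had 1 gene symbol in the platform annotation, 1752 several and 7807 none, and 0 columns were left out. The brightest probe set per gene gave 18377 genes with no filter on level. Groups were compared across all genes by limma (version 3.58.1 under R 4.3.3), with lmFit, eBayes and group as the one term. The test was two-sided, with a threshold of 0.05 after Benjamini-Hochberg adjustment over all genes. It was run on simulated data with noise drawn independently for each gene, which does not cover a shift that many genes share. Lists and promoter shares were described without a test. Members with the widest and narrowest range and the largest differences of each role are given by array. The series calls its samples biological replicates. If they did not come from separate cultures, the p-values reflect just the spread among these samples, which may be technical. The members and lists were chosen with earlier results of these data known. Alternatives were quantile normalization, the replicate number as a block, filters on level (25th percentile or median), centring on the array median, all probe sets or their mean, an intensity trend with robust prior, array weights and leaving out arrays.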

Additional observations from a re-analysis of the deposited data

How the results depend on the processing

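No alternative gave a gene or member past an adjusted p of 0.05 in limma. The members' median difference of -0.02 lay between -0.03 and 0.09 with all 6 arrays, the highest under array weights (31 members higher), and between -0.21 and 0.19 with single arrays left out, so it has no settled sign. Members with groups apart numbered 0 with all arrays, 0 to 6 with single arrays left out and 7 without both empty-vector array 1 and GHSROS array 3. The 6, all lower, arose without empty-vector array 1, where 5.95% of all genes lay apart lower, and over the single omissions 5.00% to 10.1% of all genes lay apart in either direction taken alone. At an unadjusted p under 0.05 the count was 0 to 1 with single arrays left out, the 1 of 40 being E2F2 without empty-vector array 3, where 2.61% of all genes had such a p. The members' median range of 0.82 was 0.33 without both arrays, which by construction removes the lowest values. Across genes, same-numbered arrays deviated together from their group means for number 2 (r = 0.50) but not for 1 (-0.71) or 3 (-0.67). The numbers were thus not taken to pair the cultures. Between unlike numbers, r was 0.83 for empty-vector array 1 with GHSROS array 3, and 0.74 for empty-vector array 3 with GHSROS array 1. What these arrays shared was not tested, and no fit took them as pairs. With the replicate number as a block 0 genes passed, 0 members had an unadjusted p under 0.05, and the count of all genes there was 223 against 325. The filter at the median level left out 1 member, E2F2. Arrays give no counting depth, and dim probe sets such as that of E2F2 carry compressed differences.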
